A study of Homo sapiens with 8 samples.

Results

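The interferon response genes studied here are 49 genes that are commonly induced by interferon, listed by name and found as rows of a count table of polysome sequencing from cultured human cardiac fibroblasts. All 49 were among the 59385 rows, and all 49 passed the filter on low counts, which left 16228 genes to test. The rule for the list is the genes' names and uses no measured value, but the list was drawn up with earlier results of these data known. Of the 49, 45 had at least 10 counts in all 8 libraries, and 4 (IRF7, IRF9, XAF1 and CMPK2) fell under 10 in at least 1 library and are described apart. None was under 10 counts in all 8.

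The cells were IHCF, an immortalized line of human cardiac fibroblasts, infected with lentivirus that carried either a hairpin against EIF4G2 (knockdown) or a scramble hairpin with no target. EIF4G2 is a relative of the scaffold factor eIF4G that lacks the site for the cap-binding protein and serves initiation on a subset of mRNAs. Before harvest both kinds of cell went through serum starvation (6 h or longer) and were then given TGF-beta, the growth factor that activates fibroblasts, for 24 h. Thus every group was TGF-beta treated, and the labels name no interferon treatment and no cells without a hairpin. Total RNA and RNA bound to polysomes were each sequenced after poly(A) selection, which gave 4 groups of 2 libraries: scramble total, knockdown total, scramble polysomal and knockdown polysomal. The titles call the 2 libraries of a group biological replicates, with no further word on separate cultures, so a p-value here reflects no more than how these libraries differ.

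Interferons are secreted proteins that bind receptors on most cells and, through JAK kinases, activate transcription factors of the STAT family. Joined by IRF9, STAT complexes enter the nucleus, bind interferon-stimulated response elements in promoters and switch on a large set of antiviral genes. The products sense foreign RNA, block viral entry or translation, tag proteins with the ubiquitin-like ISG15, or load peptides on MHC class I. Fibroblasts carry the receptors and keep a low level of many of these mRNAs without added interferon. Several of the proteins, such as the kinase PKR (EIF2AK2), act on translation itself.

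Total counts per library ran from 18043714 to 24590030, and the 49 genes took 0.22% to 0.316% of them. EIF4G2 itself stood at 793 and 784.5 CPM (counts relative to library size, scaled by TMM library factors) in scramble total RNA and at 293 and 327 in knockdown total RNA. In polysomal RNA it stood at 875 and 876 CPM with the scramble hairpin and at 244 and 334 CPM with its own hairpin, so both knockdown libraries were below both scramble libraries in each fraction (edgeR log2 fold change -1.35 ± 0.18 in total RNA, adjusted p = 0.0504, and -1.60 ± 0.18 in polysomal RNA, adjusted p = 0.0276). Of 12 fibroblast markers, 8 had 10 counts or more in every library, led by COL1A1, COL1A2, THY1 and VIM. PDGFRA, POSTN, TCF21 and DCN fell under 10 counts in some library. The epithelial keratins KRT8 and KRT18 had means of 934 and 437 CPM in scramble total RNA. In the same libraries COL1A1 had 3817, VIM 1095, COL1A2 266 and THY1 235 CPM. DCN, which encodes the proteoglycan decorin, had at most 8 counts in any library and 0 in both knockdown polysomal libraries. In 2 libraries other features stood apart: replicate 1 of knockdown total RNA had shorter transcripts behind its counts (median 2708 nt, against 2960 to 3010 nt in the other 3 total libraries), and replicate 1 of scramble polysomal RNA had 7.12% mitochondrial counts, against 14.5% to 17.5% in the other 3 polysomal libraries.

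Levels between genes were compared per length of transcript. In scramble total RNA, IFITM3 (a membrane protein that restricts virus entry) led with a mean of 324 CPM per kb, followed by ISG15 with 116, IFI6 with 100.5, LGALS3BP with 98.1, IFITM2 with 91.9 and B2M with 64.9 CPM per kb. IFI6, LGALS3BP and IFITM2 lay within 10 CPM per kb of one another. In scramble polysomal RNA the order of the leaders was IFITM3 with 1259, ISG15 with 735, B2M with 382, IFI6 with 368, IFITM2 with 262 and IFITM1 with 207 CPM per kb. B2M and IFI6 were neighbours there whose library values overlapped. At the other end, XAF1 (0.118), IRF7 (0.136), SAMD9 (0.644), HLA-C (0.832) and HLA-B (0.981) were under 1 CPM per kb in scramble total RNA. The span from XAF1 to IFITM3 covered more than 3 orders of magnitude, as the plot of CPM per kb by library shows.

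**Figure D1:**
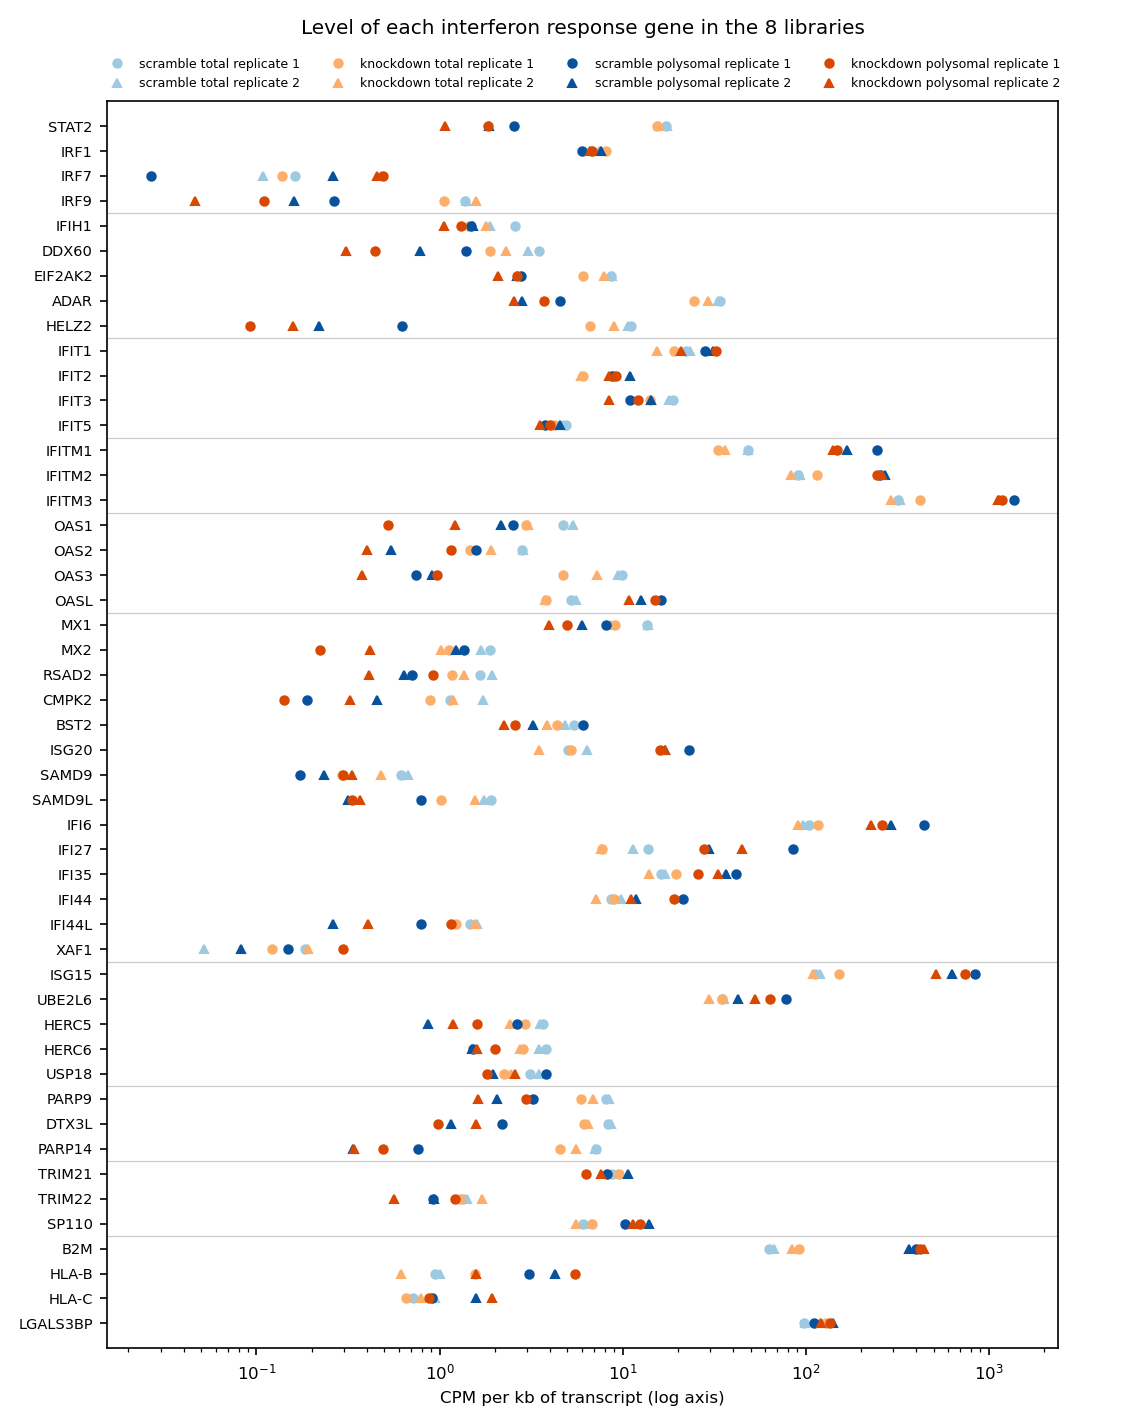
Level of each of the 49 genes in each library, in CPM per kb of transcript on a log axis; circles are replicate 1 and triangles replicate 2, pale colours are total RNA and dark colours polysomal RNA, and grey lines separate the roles. IFITM3, ISG15, IFI6 and B2M sit at the right and shift further right in polysomal RNA, while HELZ2, PARP14 and STAT2 shift left; XAF1 has no point for knockdown polysomal replicate 2, where its count was 0.

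The first question was whether the EIF4G2 hairpin went with another level of these mRNAs in the cells. In total RNA 37 of the 49 members lay below the scramble mean and 12 above it, with a median log2 fold change of -0.36, where all tested genes had a median of 0.02 and 47.1% lay below 0. The low values were spread over most antiviral roles: all 4 OAS genes (median -0.71), all 5 RNA sensors and RNA enzymes (median -0.47), all 4 IFIT genes (median -0.38) and all 3 members of the PARP9, DTX3L and PARP14 group (median -0.43) were below 0. IFIT2 was at 0.667 and MX1 at 0.649 of the scramble level. B2M, LGALS3BP and IRF1 stood on the other side, B2M at 1.36 times the scramble level. No single member passed the test. In bulk RNA, fewer cells that express a gene and less RNA per cell cannot be told apart.

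edgeR's quasi-likelihood test called 0 of the 49 in total RNA, and 8 had an unadjusted p under 0.05, 7 of them lower and 1 higher (16.3%, against 3.68% of all tested genes). That number was 2 without scramble total replicate 1, 14 without scramble polysomal replicate 1, and 25, 23 of them lower, in a fit of the 4 total libraries alone. For these settings the share of all tested genes was not counted. DESeq2 also called 0, with 9 at an unadjusted p under 0.05 (18.4%, against 3.49% of all tested genes). The background was as thin, since edgeR called 0% and DESeq2 0.16% of all tested genes. Both knockdown libraries lay below both scramble libraries for 28 of the 49 members (57.1%), against 23.1% of all tested genes. Both lay above for 3 members (6.12%; IRF1, B2M and LGALS3BP), against 24.8% of all tested genes. The 5 members with the smallest p were IFIT2 (log2 fold change -0.59 ± 0.17, SE), MX1 (-0.62 ± 0.19), B2M (0.44 ± 0.15), IFITM1 (-0.48 ± 0.18) and OASL (-0.51 ± 0.20), each with an edgeR adjusted p of 1.

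The shift was present in both knockdown total libraries and differed between them by length. Against the scramble mean, the median member stood at -0.35 (log2) in replicate 1 and at -0.28 in replicate 2, where all tested genes had medians of 0.03 and -0.00179. In replicate 1, the library with the shorter transcripts, the 18 members under 2 kb had a median of -0.03, the 20 members of 2 to 4 kb -0.42 and the 11 members of 4 kb and over -0.65. All tested genes ran the same way there, with medians of 0.27, 0.05 and -0.18 in those classes. Replicate 2 showed no such order, with member medians of -0.25, -0.33 and -0.28 and all-gene medians of 0.02, -0.00253 and -0.02. With the length trend of each library removed, which was added once the data had been seen, 43 members lay below 0 and the median was -0.33. Without replicate 1 of knockdown total RNA, 41 lay below 0 and the median was -0.29. Immune cells also carry these mRNAs, and the 10 leukocyte markers summed to 2.39 to 3.24 CPM in scramble and 2.01 CPM in knockdown total RNA. CSF1R, a macrophage receptor, had counts in all 8 libraries. In total RNA it was lower with the EIF4G2 hairpin too, at 0.879 and 0.889 CPM against 1.64 and 1.2 CPM with the scramble hairpin. Its polysomal means were 5.39 CPM with the EIF4G2 and 5.52 CPM with the scramble hairpin. PTPRC had 7 and 4 counts in scramble and 1 and 8 in knockdown total RNA, and 0 in every polysomal library. CD68, LYZ and ITGAM had at most 6 counts in any library. CD14 stood at 0.593 to 1.07 CPM in the total libraries, and CD3E, MS4A1 and FCGR3A were among the markers at 0 in all 8 libraries. CLEC4C, LILRA4 and GZMB, markers of plasmacytoid dendritic cells, were at 0 in all 8 as well. The part of these cells in the result was not tested.

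**Figure D2:**
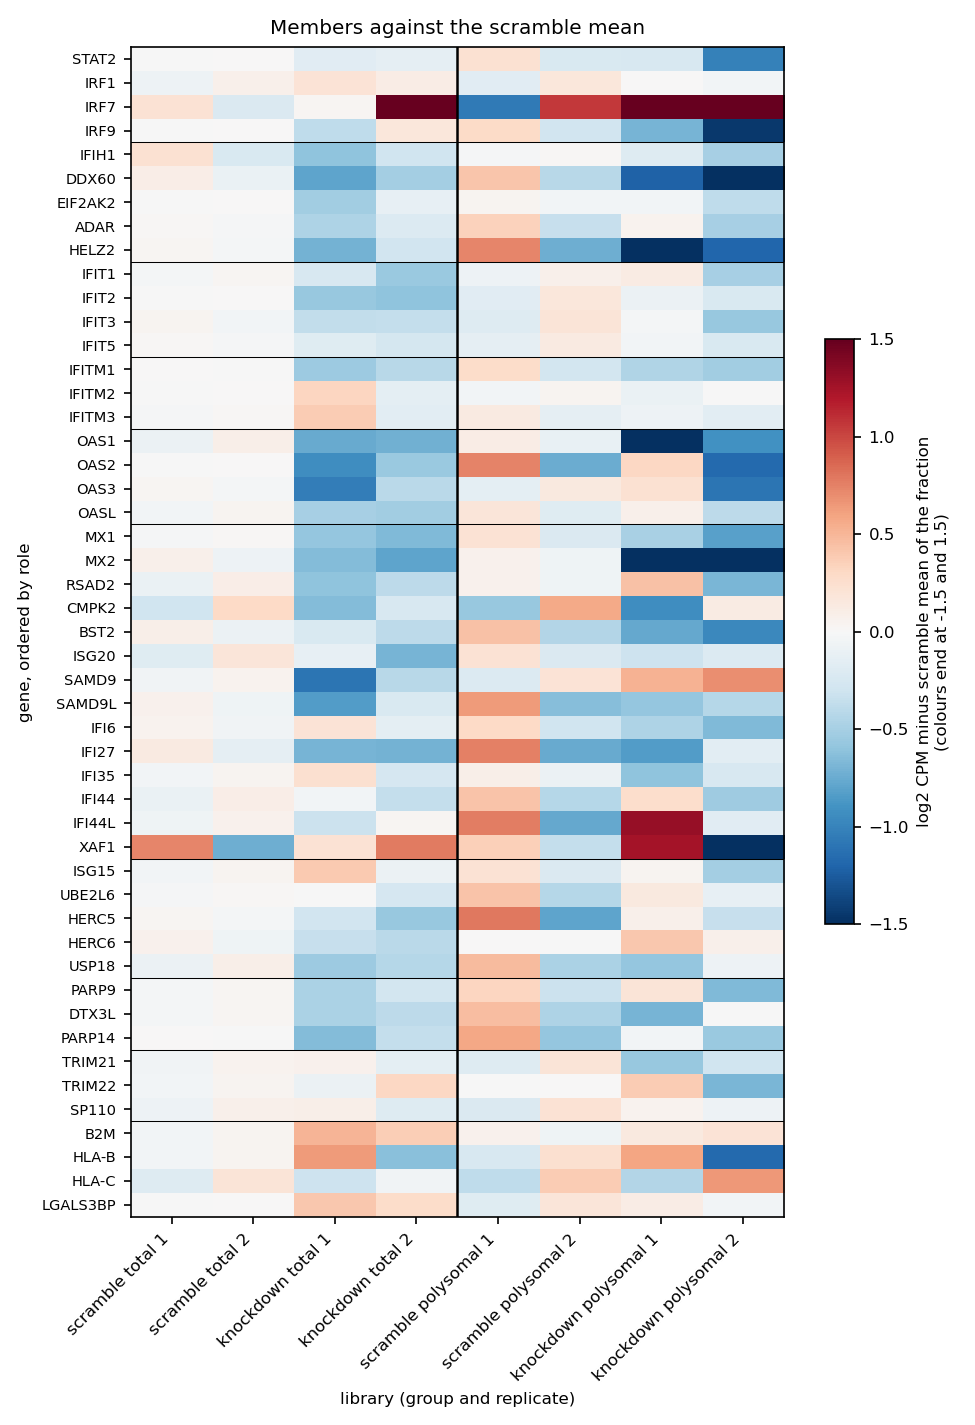
Each of the 49 genes (rows, grouped by role) in each of the 8 libraries (columns), as log2 CPM minus the scramble mean of the same fraction; blue is below and red above that mean, and the vertical line separates total from polysomal RNA. Both knockdown total columns are blue for most rows, with B2M and LGALS3BP red in both, and the pair of scramble polysomal columns differ from each other more than the pair of scramble total columns do.

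In polysomal RNA the members also lay below the scramble level more often than not, with a wider spread between libraries. Of the 49, 41 were below 0 and 8 above, with a median of -0.23 where all tested genes had -0.01 and 51.4% lay below 0. The lowest were MX2 (a GTPase that blocks nuclear entry of viruses) at 0.244, HELZ2 (a helicase and nuclear receptor coactivator) at 0.287, DDX60 (a helicase tied to RNA sensing) at 0.348 and OAS1 at 0.364 of the scramble level. edgeR called 0 members, against 0.0123% of all tested genes. In that test 9 members had an unadjusted p under 0.05, all lower (18.4%, against 13.3% of all tested genes). DESeq2 called 3 members, all lower: MX2 (adjusted p = 0.00725), DDX60 (adjusted p = 0.0108) and HELZ2 (adjusted p = 0.013), and 1.4% of all tested genes. In edgeR the same genes had adjusted p of 0.161, 0.164 and 0.201, and OAS1 and MX1 completed the 5 smallest p with 0.195 and 0.236.

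Both knockdown polysomal libraries lay below both scramble libraries for 14 members (28.6%), against 18.5% of all tested genes, and above for 4 (8.16%; IRF7, SAMD9, HERC6 and B2M), against 15.5%. Against the scramble mean, the median member stood at -0.04 in replicate 1 of the knockdown and at -0.43 in replicate 2, and the scramble libraries themselves stood at 0.14 and -0.14. The median over members was -0.54 without knockdown polysomal replicate 1 and -0.15 without replicate 2, where all tested genes had -0.05 and -0.09. The member median was -0.16 without scramble polysomal replicate 1, the library with the low mitochondrial share, where 30 members were below 0. Without scramble polysomal replicate 2 it was -0.39. All tested genes had medians of 0 and -0.03 in these runs. Without knockdown polysomal replicate 2 the log2 fold changes of OAS1 and MX2 were -2.218 and -2.595. Leukocyte markers summed to 6.00 to 7.20 CPM in scramble and 3.99 to 7.89 CPM in knockdown polysomal RNA. The 4 epithelial markers summed to 3120 to 3190 CPM in scramble and 2230 to 2260 CPM in knockdown polysomal RNA. Nearly all of that came from the keratins KRT18, at means of 1542 and 1070 CPM, and KRT8, at 1611 and 1178 CPM. EPCAM had means of 1.54 and 1.06 CPM, and CDH1 had 0 counts in every polysomal library. TEK, an endothelial receptor, had means of 7.86 and 4.21 CPM. The means of PECAM1 and KDR, also endothelial markers, were not lower with the EIF4G2 hairpin. PECAM1 had 4.03 and 4.27 CPM and KDR had 0.698 and 1.52 CPM, scramble before knockdown. CDH5 and VWF had at most 4 counts in any polysomal library. The part of these markers in the result was not tested.

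The polysome-to-total ratio compares the knockdown change in polysomal RNA with that in total RNA, and so asks whether ribosome loading went with the hairpin beyond the mRNA level. Over the members it centred near 0: 22 were below and 27 above, with a median of 0.03, where all tested genes had -0.07. All 4 IFIT genes were above 0 (0.07 to 0.42, SE 0.24 to 0.29), as were the 3 members of the PARP9, DTX3L and PARP14 group (0.03 to 0.17, SE 0.41 to 0.45). All 3 IFITM genes were below (-0.26 to -0.03, SE 0.23 to 0.28). All tested genes under 2 kb had a median of -0.17 in this ratio, those of 2 to 4 kb -0.05 and those of 4 kb and over 0.03. The part of length in these signs was not tested. edgeR called 0 members and 0% of all tested genes, with an unadjusted p under 0.05 for 3 members (6.12%, against 6.27% of all tested genes). DESeq2 called 0 members and 0.0246% of all tested genes, also with 3. The 5 smallest p belonged to MX2 (log2 difference -1.29 ± 0.53, SE), SAMD9 (1.36 ± 0.57), HELZ2 (-1.32 ± 0.59), IFI6 (-0.63 ± 0.29) and DDX60 (-0.88 ± 0.44), all with an edgeR adjusted p of 0.776. Single libraries moved these values: HELZ2 ran from -1.92 without scramble polysomal replicate 2 to -0.38 without scramble polysomal replicate 1, DDX60 from -1.28 to -0.40 without the same libraries, and MX2 from -1.83 without knockdown polysomal replicate 2 to -0.90 without knockdown polysomal replicate 1. Without knockdown polysomal replicate 1 the number below 0 was 38 and without scramble polysomal replicate 2 it was 32, so the balance of signs rested on single libraries.

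**Figure D3:**
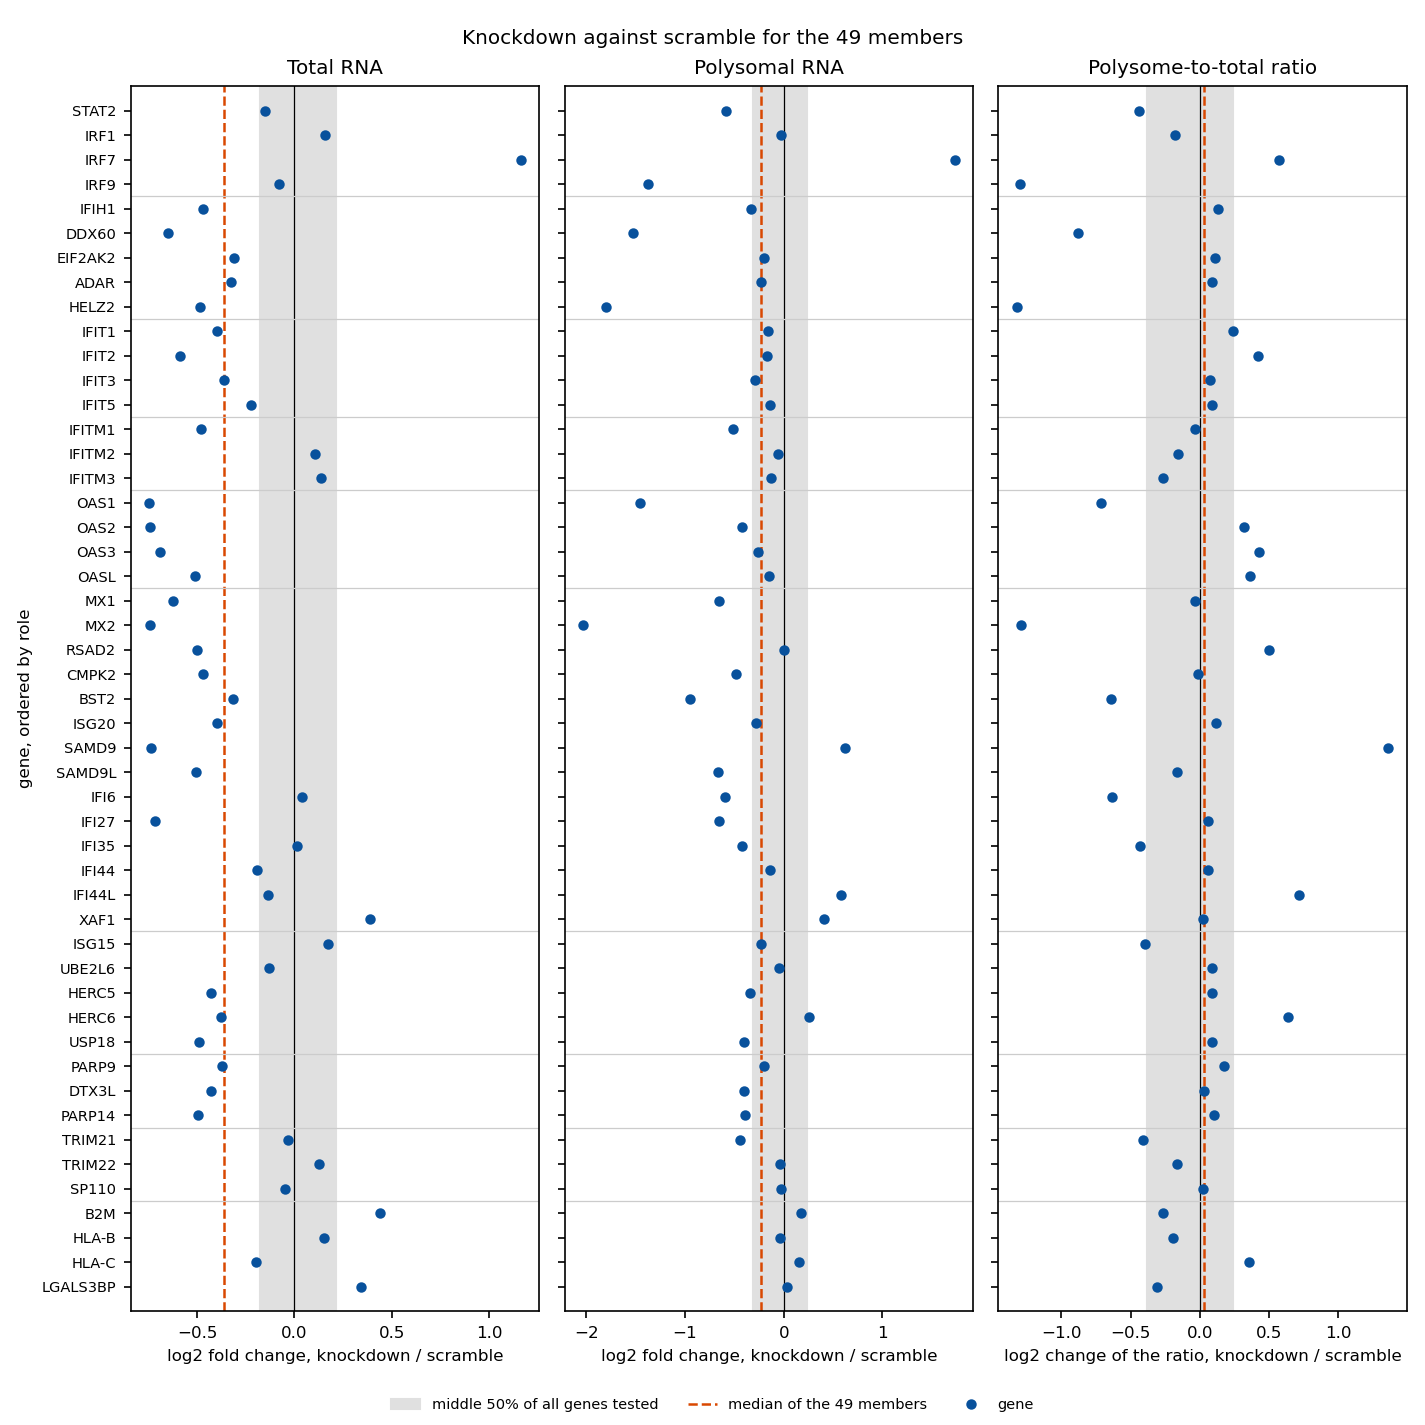
Log2 fold change of knockdown against scramble for each of the 49 genes (edgeR), with a panel each for total RNA, polysomal RNA and the polysome-to-total ratio; the grey band holds the middle 50% of all tested genes and the dashed line is the median of the members. In total RNA most points lie left of the band; in polysomal RNA MX2, HELZ2, DDX60 and OAS1 stand far left; in the ratio the dashed line is close to 0. Horizontal scales differ between the panels.

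Polysomal and total RNA of the same cells were then compared. In scramble cells edgeR called 14 of the 49 higher in polysomal than in total RNA and 21 lower, 28.6% and 42.9%, against 29.7% and 33.7% of all tested genes. In knockdown cells it called 16 higher and 16 lower, 32.7% each, against 28.9% and 34.1%. Highest were ISG15 at 6.34 times, B2M at 5.89 times, IFI27 at 4.56 times and IFITM1 at 4.26 times its share of total RNA in scramble cells. Lowest were HELZ2 at 0.0392, PARP14 at 0.0779, OAS3 at 0.0854, ADAR at 0.11 and STAT2 at 0.128 times. These ratios are relative to the other genes of the same libraries. With library totals alone in place of TMM, the median of all tested genes moved to -1.16 in scramble and -1.22 in knockdown cells from -0.17 and -0.16. The calls became 8 higher and 32 lower in scramble and 7 higher and 31 lower in knockdown cells. In either direction, 10986 of 16228 genes were then called in scramble and 10995 in knockdown cells.

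Short members tended to be high on polysomes and long members low, with exceptions on both sides. Across the 49 genes the log2 ratio in scramble cells had a Pearson r of -0.798 and a Spearman rho of -0.79 with the log2 transcript length, and -0.697 and -0.685 in knockdown cells. Over 14178 tested genes with a length the values were -0.446 and -0.561 in scramble cells and -0.382 and -0.521 in knockdown cells. These correlations are across genes of the same libraries and describe them only. In scramble cells the 18 members under 2 kb had a median of 1.38 (all tested genes of that length 1.25), the 20 members of 2 to 4 kb -0.55 (-0.07) and the 11 of 4 kb and over -1.72 (-1.25). OASL was a long exception, at 3.27 kb and 2.67 times its total share, and STAT2 is of the same length at 0.128 times. IFIT2 (3.49 kb, 1.1 times) and IRF1 (3.58 kb, 0.967 times) were not low either. Among members under 2 kb, IRF9 (1.84 kb, 0.156 times) and OAS1 (1.68 kb, 0.464 times) were called lower in scramble cells. BST2 (1.02 kb, 0.914 times) and TRIM21 (1.92 kb, 1.04 times) were not called. With the length trend removed, the calls in scramble cells were 8 higher and 15 lower, and in knockdown cells 9 higher and 16 lower. That is 46.9% and 51% of the members, against 52.5% and 53.9% of all tested genes called under the same setting. It lost 17 of the calls in scramble and 12 in knockdown cells and gained 5 in each. Gained were IRF1, IFIT2, IFIT5, BST2 and TRIM21 in scramble cells, and IFIT3, IFIT5, BST2, SAMD9 and TRIM21 in knockdown cells.

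**Figure D4:**
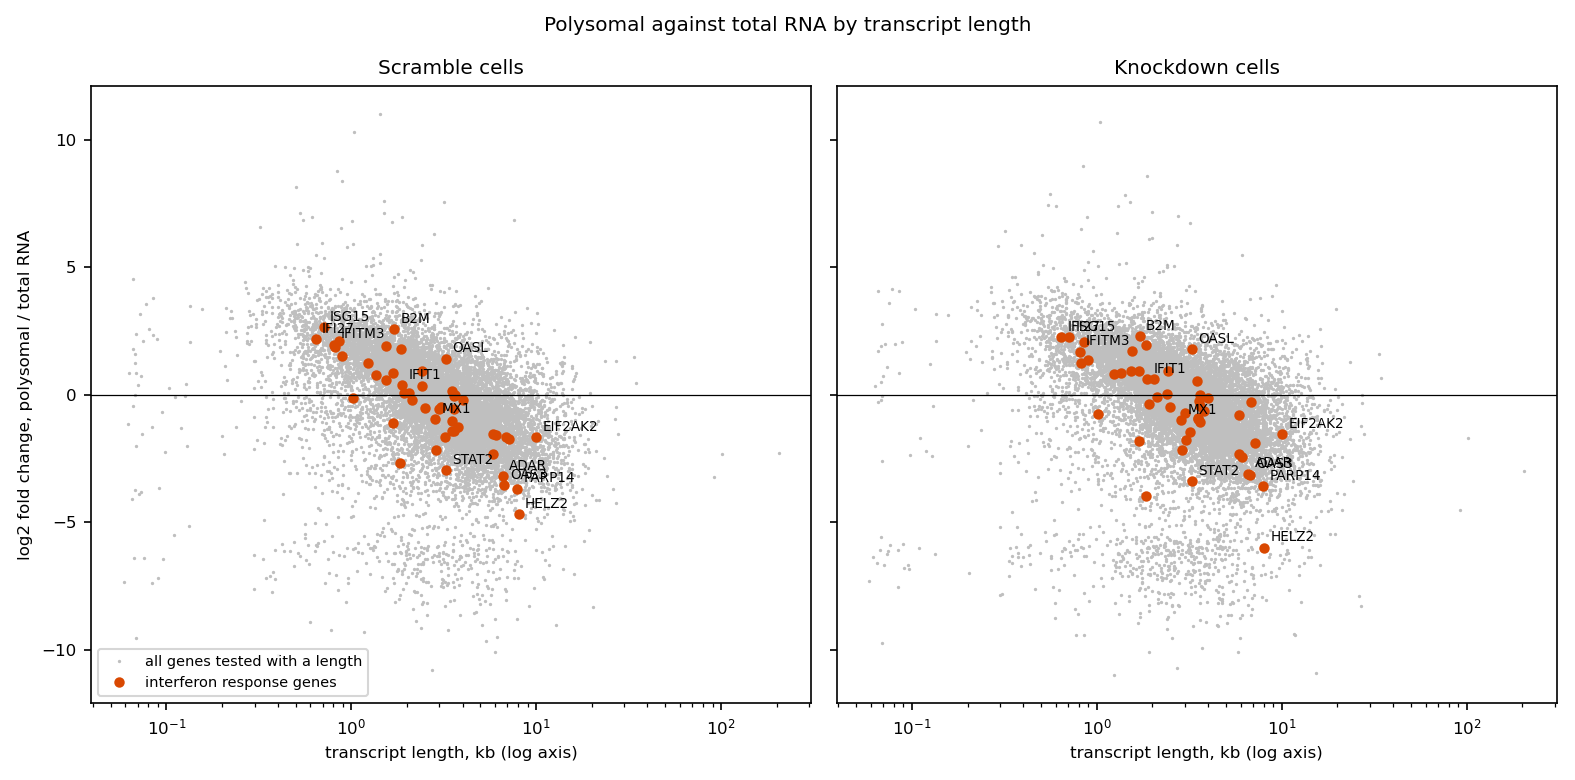
Log2 fold change of polysomal against total RNA (edgeR) by transcript length in kb on a log axis, in scramble cells (left) and knockdown cells (right); grey points are all tested genes with a length and orange points are interferon response genes. The orange points run from ISG15, IFI27 and the IFITM genes at the upper left to HELZ2, PARP14, OAS3 and ADAR at the lower right, with OASL above and STAT2 below others of their length.

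The transcription factors lie at the head of the response. STAT2 acts with IRF9 in the complex ISGF3, and IRF1 is a factor that both types of interferon induce. STAT2 measured 56.2 and 56.8 CPM in scramble total RNA, 50.3 and 51.6 in knockdown total RNA, 8.34 and 6.05 in scramble polysomal RNA and 6 and 3.48 in knockdown polysomal RNA. It was low on polysomes in both kinds of cell (log2 ratio -2.97 ± 0.24 in scramble, edgeR adjusted p = 2.25e-06, and -3.40 ± 0.25 in knockdown cells, adjusted p = 1.6e-06), and the knockdown libraries were below both scramble libraries in each fraction without a call. IRF1 stood at 24 and 26.6 CPM in scramble total RNA, 29.1 and 27.2 in knockdown total RNA, 21.6 and 27.4 in scramble polysomal RNA and 24.4 and 23.7 in knockdown polysomal RNA. IRF1 was above both scramble values in both knockdown total libraries (log2 fold change 0.15 ± 0.17, edgeR adjusted p = 1), overlapped in polysomal RNA and was called in none of the 5 comparisons. IRF7, a regulator of interferon genes, and IRF9 are given with the genes of low count.

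Among the genes that sense or act on RNA, all 5 members were below the scramble mean in total and in polysomal RNA. DDX60 measured 21.3 and 18.5 CPM in scramble total RNA, 11.5 and 14 in knockdown total RNA, 8.5 and 4.75 in scramble polysomal RNA and 2.7 and 1.87 in knockdown polysomal RNA. The hairpins did not overlap in either fraction (log2 fold change -0.65 ± 0.28 in total RNA and -1.52 ± 0.34 in polysomal RNA), and the polysomal difference, called by DESeq2, ranged from -1.95 without scramble polysomal replicate 2 to -1.06 without scramble polysomal replicate 1. HELZ2 stood at 89.9 and 85.8 CPM in scramble total RNA, 53.6 and 72.1 in knockdown total RNA, 5.04 and 1.78 in scramble polysomal RNA and 0.742 and 1.27 in knockdown polysomal RNA. Only 11 and 15 counts lay behind the last pair, and replicate 1 of scramble polysomal RNA was well above replicate 2, so that the polysomal log2 fold change of HELZ2 (-1.80 ± 0.50) was -0.88 without it. ADAR measured 225 and 219 CPM in scramble total RNA, 162 and 193 in knockdown total RNA, 30.2 and 18.8 in scramble polysomal RNA and 24.7 and 16.8 in knockdown polysomal RNA. ADAR, which converts adenosine to inosine in double-stranded RNA, and HELZ2 were among the members lowest on polysomes (log2 ratio -3.18 ± 0.25 and -4.67 ± 0.36 in scramble cells, edgeR adjusted p = 1.97e-06 for each). EIF2AK2 stood at 86.5 and 87.5 CPM in scramble total RNA, 60.8 and 79.6 in knockdown total RNA, 27.9 and 26.6 in scramble polysomal RNA and 26.6 and 20.9 in knockdown polysomal RNA. PKR, its product, phosphorylates eIF2-alpha and so shuts off initiation, and its mRNA was lower on polysomes in both kinds of cell (log2 ratio -1.67 ± 0.18 and -1.56 ± 0.18), a difference that went to -0.01 and 0.06 with the length trend removed. DDX60 was lower on polysomes too (-1.58 ± 0.29 and -2.46 ± 0.33), with -2.17 in scramble cells without scramble polysomal replicate 1 and a call lost there with the length trend removed (-0.31, adjusted p = 0.327). HELZ2 stood at -5.73 in scramble cells without scramble polysomal replicate 1. IFIH1, the sensor MDA5, measured 9.34 and 6.79 CPM with the scramble hairpin and 5.21 and 6.46 CPM with the EIF4G2 hairpin in total RNA. Its hairpins were apart in both fractions, and it was called in no comparison.

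The IFIT proteins bind viral RNA ends and halt their translation, and their genes lie side by side on chromosome 10 (GRCh38). Promoters are shown for this family and for ISG15, since these are the textbook targets of the response element through which STAT2 and IRF9 act. The sequences are RefSeq windows of GRCh38.p14, 250 bases before to 50 bases after a gene's start, on the plus strand, and capitals mark the core of the element, GAAA, 2 bases, GAAA, read on either strand (TTTC, 2 bases, TTTC where it lies on the other strand).
IFIT1, chr10:89392373-89392672: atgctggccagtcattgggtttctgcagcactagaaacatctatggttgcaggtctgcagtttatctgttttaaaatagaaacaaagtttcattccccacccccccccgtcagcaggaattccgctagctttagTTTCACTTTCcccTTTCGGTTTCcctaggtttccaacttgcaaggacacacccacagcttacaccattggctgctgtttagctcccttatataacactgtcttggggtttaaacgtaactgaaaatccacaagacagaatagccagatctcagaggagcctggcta
IFIT3, upstream start, chr10:89327747-89328046: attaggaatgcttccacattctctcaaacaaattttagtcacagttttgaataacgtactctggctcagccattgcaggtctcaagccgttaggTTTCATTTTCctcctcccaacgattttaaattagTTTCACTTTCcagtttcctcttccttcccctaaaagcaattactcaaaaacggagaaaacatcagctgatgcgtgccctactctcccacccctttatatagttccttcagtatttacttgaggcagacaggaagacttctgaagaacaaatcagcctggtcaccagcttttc
IFIT3, downstream start, chr10:89332279-89332578: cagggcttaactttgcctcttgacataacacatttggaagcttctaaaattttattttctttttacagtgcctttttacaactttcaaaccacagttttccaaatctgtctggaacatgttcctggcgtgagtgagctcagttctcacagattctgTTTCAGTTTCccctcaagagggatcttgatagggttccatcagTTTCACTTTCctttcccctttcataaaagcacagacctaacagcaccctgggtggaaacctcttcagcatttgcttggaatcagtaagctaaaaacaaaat
IFIT5, chr10:89414318-89414617: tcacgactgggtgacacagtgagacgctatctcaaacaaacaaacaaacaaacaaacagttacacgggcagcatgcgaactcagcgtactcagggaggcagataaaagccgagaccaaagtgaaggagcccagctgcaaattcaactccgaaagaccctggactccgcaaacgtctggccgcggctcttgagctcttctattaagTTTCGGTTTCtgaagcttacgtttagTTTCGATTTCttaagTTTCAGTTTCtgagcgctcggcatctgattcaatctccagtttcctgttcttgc
ISG15, chr1:1013247-1013546: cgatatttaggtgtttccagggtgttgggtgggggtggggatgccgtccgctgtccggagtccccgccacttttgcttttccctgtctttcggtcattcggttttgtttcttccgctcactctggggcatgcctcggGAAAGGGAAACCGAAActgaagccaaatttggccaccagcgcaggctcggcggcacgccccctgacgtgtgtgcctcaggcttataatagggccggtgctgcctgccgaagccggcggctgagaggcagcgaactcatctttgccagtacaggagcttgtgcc
In IFIT1 a pair of cores stands from 116 to 94 bases before the start, in both IFIT3 windows there is a pair, and IFIT5 has 3 cores, the last across the start itself. In ISG15 a pair of cores overlap, from 113 to 98 bases before the start, on the other strand from those of the IFIT genes.

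Promoter windows were found for 41 of the 49 members, 56 windows in all, and not for IRF7, IFIT2, IFITM2, OAS2, OASL, MX2, USP18 and TRIM22. The core was in 30 of the 56 windows (53.6%), against 3.57% of all 35116 windows of the same length. By gene, 26 of 41 members (63.4%) held it, against 4.38% of all 27305 genes with a window. A longer form, with GAA after 2 more bases, was in 14.3% of the member windows and 0.208% of all windows, and the members with it were B2M, BST2, HERC5, IFIH1, IFIT3, ISG15, MX1 and TRIM21. The gamma-activated site (TTC, 3 bases, GAA), a second kind of interferon response element, was in 12 member windows (21.4%) against 7.66% of all windows, and 5 member windows had a core and such a site that overlapped. IRF1 and IRF9 held this site and no core. A match is a description of the letters, and many members were listed for their known induction by interferon.

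IFIT1 measured 42 and 43.6 CPM in scramble total RNA, 36.1 and 28.9 in knockdown total RNA, 52.7 and 58.5 in scramble polysomal RNA and 60.5 and 39.1 in knockdown polysomal RNA. IFIT2 stood at 31.2 and 31.4 CPM in scramble total RNA, 21.1 and 20.6 in knockdown total RNA, 30.4 and 38.4 in scramble polysomal RNA and 32 and 29.3 in knockdown polysomal RNA. IFIT3 measured 47 and 44.5 CPM in scramble total RNA, 35.4 and 35.8 in knockdown total RNA, 27.3 and 35.7 in scramble polysomal RNA and 30.5 and 21 in knockdown polysomal RNA. In total RNA all 3 had both knockdown libraries below both scramble libraries, IFIT2 with the smallest p of any member (log2 fold change -0.59 ± 0.17, unadjusted p = 0.00518, edgeR adjusted p = 1). In polysomal RNA the libraries of the hairpins overlapped for each of them. IFIT1 and IFIT2 were called higher on polysomes in knockdown and not in scramble cells (log2 ratio 0.62 ± 0.21 and 0.56 ± 0.17, edgeR adjusted p = 0.0231 and 0.0148), and both turned negative with library totals alone. Both calls were also lost with no count filter (0.44 and 0.38, adjusted p = 0.0717 and 0.182), and that of IFIT1 with the length trend removed (0.0402). Without knockdown polysomal replicate 1 these ratios were 0.17 and 0.39, and over the libraries left out in turn the adjusted p ran from 0.00471 to 0.44 for IFIT1 (call lost without knockdown total replicate 2, either scramble polysomal library or knockdown polysomal replicate 1) and from 0.0191 to 0.102 for IFIT2 (lost without any of the 4 total libraries or knockdown polysomal replicate 1). IFIT3 was lower on polysomes in scramble cells (-0.54 ± 0.20, adjusted p = 0.0354), at -0.46 without scramble polysomal replicate 1 and with an adjusted p of up to 0.133, a call lost without that library or any of the 4 total libraries. The difference of these ratios between the hairpins passed no test, with edgeR adjusted p of 0.915, 0.779 and 0.997. IFIT5 measured 19.6 and 19 CPM with the scramble hairpin and 17 and 16 CPM with the EIF4G2 hairpin in total RNA and was called in no comparison.

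IFITM1, IFITM2 and IFITM3 encode small membrane proteins that stop viruses from fusing at the cell surface or in endosomes, and they are neighbours on chromosome 11. IFITM1 measured 41.6 and 41.4 CPM in scramble total RNA, 28.5 and 31.1 in knockdown total RNA, 211 and 143 in scramble polysomal RNA and 127 and 121 in knockdown polysomal RNA. Both knockdown values were below both scramble values in each fraction, with log2 fold changes of -0.48 ± 0.18 in total and -0.51 ± 0.18 in polysomal RNA (edgeR adjusted p = 1 and 0.276). IFITM2 stood at 81.5 and 82.5 CPM in scramble total RNA, 102 and 74.1 in knockdown total RNA, 227 and 241 in scramble polysomal RNA and 218 and 232 in knockdown polysomal RNA. IFITM3 measured 259.6 and 265 CPM in scramble total RNA, 341 and 236 in knockdown total RNA, 1114 and 921 in scramble polysomal RNA and 958 and 907 in knockdown polysomal RNA. For the latter pair the hairpins overlapped in each fraction, with replicate 1 of knockdown total RNA, the library with the shorter transcripts, the highest of the total libraries. All 3 were higher on polysomes in both kinds of cell, from 1.35 ± 0.17 for IFITM2 in knockdown cells to 2.09 ± 0.19 for IFITM1 in scramble cells, with edgeR adjusted p from 4.09e-06 to 4.07e-05, and with the length trend removed all but IFITM1 in knockdown cells lost the call: IFITM2 turned to -0.13 and -0.09, IFITM3 went to 0.24 and 0.19, and IFITM1 in scramble cells to 0.41 (adjusted p = 0.0846). Exons annotated to IFITM1 and IFITM2 overlap, so reads there may have been left out or split by the counting.

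The OAS enzymes make 2'-5' oligoadenylates in response to double-stranded RNA, and OASL is a relative without that activity. They had the lowest family median in total RNA. OAS1 measured 7.98 and 8.96 CPM in scramble total RNA, 4.99 and 5.11 in knockdown total RNA, 4.22 and 3.62 in scramble polysomal RNA and 0.877 and 2.04 in knockdown polysomal RNA. OAS2 stood at 10.1 and 10.3 CPM in scramble total RNA, 5.3 and 6.92 in knockdown total RNA, 5.68 and 1.96 in scramble polysomal RNA and 4.18 and 1.44 in knockdown polysomal RNA. OAS3 measured 66.4 and 63.5 CPM in scramble total RNA, 31.7 and 48.9 in knockdown total RNA, 4.98 and 6.12 in scramble polysomal RNA and 6.48 and 2.55 in knockdown polysomal RNA. Both knockdown total libraries were below both scramble libraries for each, with log2 fold changes of -0.75 ± 0.33, -0.74 ± 0.47 and -0.69 ± 0.29 and edgeR adjusted p of 1. In polysomal RNA OAS1 alone of the family had the hairpins apart (-1.46 ± 0.40, adjusted p = 0.195; -2.22 and 0.0442 without knockdown polysomal replicate 2, and -0.98 without replicate 1), and for OAS2 the replicates of each hairpin differed more than the hairpins did. Between fractions OAS1 was called lower on polysomes in scramble (-1.11 ± 0.34, adjusted p = 0.0151) and knockdown cells (-1.82 ± 0.39, adjusted p = 0.00183), and OAS2 in scramble cells (-1.41 ± 0.49, adjusted p = 0.0271), where leaving out single libraries brought the adjusted p to as much as 0.0974 for OAS1 and 0.128 for OAS2, the latter at -0.90 without scramble polysomal replicate 2. Both calls were lost without that library or either scramble total library, and that of OAS2 also without either knockdown total library. OAS1 in knockdown cells stood at -2.64 without knockdown polysomal replicate 2. OAS2 stood at -2.48 in scramble cells without scramble polysomal replicate 1, and its call was lost with the length trend removed (-0.83). OAS3 was the third lowest member on polysomes in scramble cells (log2 ratio -3.55 ± 0.34, adjusted p = 6.53e-06) and stood at -4.08 in knockdown cells without knockdown polysomal replicate 1. OASL stood at 17.1 and 18.2 CPM in scramble total RNA, 12.5 and 12.3 in knockdown total RNA, 53 and 41.1 in scramble polysomal RNA and 49.1 and 35.6 in knockdown polysomal RNA. OASL went the other way between fractions, higher on polysomes in scramble (1.42 ± 0.20, adjusted p = 9.65e-05, but 0.42 and 0.125 with library totals alone) and in knockdown cells (1.78 ± 0.20, adjusted p = 2.29e-05), while its total level was lower in both knockdown libraries (-0.51 ± 0.20, adjusted p = 1).

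MX1 and MX2 are dynamin-like GTPases that trap viral nucleoproteins or capsids. MX1 measured 38.6 and 39.4 CPM in scramble total RNA, 26 and 24.7 in knockdown total RNA, 23 and 17.1 in scramble polysomal RNA and 14.1 and 11.3 in knockdown polysomal RNA. MX2 stood at 5.74 and 5.15 CPM in scramble total RNA, 3.42 and 3.1 in knockdown total RNA, 4.12 and 3.74 in scramble polysomal RNA and 0.675 and 1.27 in knockdown polysomal RNA. For both genes and in both fractions each knockdown library was below each scramble library. MX1 had log2 fold changes of -0.62 ± 0.19 in total and -0.66 ± 0.20 in polysomal RNA, and MX2 of -0.74 ± 0.34 and -2.03 ± 0.41, the latter resting on 10 and 15 counts in the knockdown libraries. MX2 was called lower on polysomes in knockdown cells (log2 ratio -1.76 ± 0.40, edgeR adjusted p = 0.0028; -2.39 without knockdown polysomal replicate 2) and not in scramble cells (-0.47 ± 0.34, adjusted p = 0.248), and the test of the difference gave an adjusted p of 0.776. MX1 was lower on polysomes in both (-0.96 ± 0.19 and -0.99 ± 0.20).

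The other effectors tended to split by fraction along with their length, with BST2 (1.02 kb) a short exception at 0.914 times its total share in scramble cells. IFI6 measured 85.8 and 79.5 CPM in scramble total RNA, 95.6 and 74.4 in knockdown total RNA, 365 and 240.5 in scramble polysomal RNA and 215 and 186 in knockdown polysomal RNA. IFI6, a small hydrophobic protein of the endoplasmic reticulum and mitochondria, was higher on polysomes (log2 ratio 1.87 ± 0.21 in scramble and 1.24 ± 0.21 in knockdown cells, 0.16 and -0.26 with the length trend removed, with both calls lost, and 0.19 in knockdown cells with library totals alone), and its knockdown polysomal values were below both scramble values (-0.59 ± 0.21, edgeR adjusted p = 0.276, and -0.28 without scramble polysomal replicate 1). IFI27 stood at 8.84 and 7.36 CPM in scramble total RNA, 4.96 and 4.91 in knockdown total RNA, 54.7 and 19.1 in scramble polysomal RNA and 18 and 29 in knockdown polysomal RNA. One scramble polysomal library was far above the other 3, and the hairpins overlapped there, while in total RNA they did not (-0.72 ± 0.42, adjusted p = 1). IFI27, a mitochondrial and nuclear membrane protein, was called higher on polysomes in scramble cells at 4.56 times (log2 ratio 1.13 without scramble polysomal replicate 1) and in knockdown cells at 4.75 times its share of total RNA, and lost both calls with the length trend removed (log2 0.31 and 0.57). ISG20 measured 9.34 and 11.9 CPM in scramble total RNA, 9.67 and 6.49 in knockdown total RNA, 42.8 and 31.7 in scramble polysomal RNA and 29.8 and 31.8 in knockdown polysomal RNA. ISG20, an exonuclease for single-stranded RNA, was higher on polysomes in both kinds of cell (1.81 ± 0.24 and 1.93 ± 0.25).

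IFI35 measured 19.8 and 21 CPM in scramble total RNA, 24.1 and 17.2 in knockdown total RNA, 51.2 and 45.2 in scramble polysomal RNA and 31.6 and 40.6 in knockdown polysomal RNA. IFI44 stood at 14.6 and 16.6 CPM in scramble total RNA, 15.1 and 12.2 in knockdown total RNA, 36.3 and 20.0 in scramble polysomal RNA and 32.5 and 18.7 in knockdown polysomal RNA. IFI35, which pairs with the interferon-induced protein NMI, was called higher on polysomes in scramble (1.24 ± 0.20) and knockdown cells (0.81 ± 0.20), and turned to -0.12 and -0.36 with the length trend removed and to -0.25 in knockdown cells with library totals alone. IFI44 was called higher in both as well (0.85 ± 0.31 and 0.91 ± 0.31, edgeR adjusted p = 0.0321 and 0.0254), and turned to -0.13 in each with library totals alone and to -0.04 in scramble cells with the length trend removed. Single libraries carried much of these values: IFI44 stood at 0.25 without scramble polysomal replicate 1 and at 0.36 in knockdown cells without knockdown polysomal replicate 1, and IFI35 at 0.49 in knockdown cells without knockdown polysomal replicate 2. The calls were lost without these libraries, and also without any of the 4 total libraries for IFI44 in scramble cells, without either knockdown total library for IFI44 in knockdown cells, and without knockdown total replicate 2 for IFI35 in knockdown cells. IFI44L measured 8.58 and 9.45 CPM in scramble total RNA, 7.19 and 9.22 in knockdown total RNA, 4.66 and 1.54 in scramble polysomal RNA and 6.81 and 2.38 in knockdown polysomal RNA. IFI44L was lower on polysomes in scramble cells (-1.53 ± 0.51, edgeR adjusted p = 0.0218), and its polysomal replicates differed by more than the hairpins; without scramble polysomal replicate 2 the ratio was -1.01, with an adjusted p of 0.111, without scramble polysomal replicate 1 it was -2.65, and with the length trend removed it was -0.30 and no longer called, and the call was also lost without scramble total replicate 2. RSAD2 measured 5.87 and 6.79 CPM in scramble total RNA, 4.14 and 4.81 in knockdown total RNA, 2.49 and 2.26 in scramble polysomal RNA and 3.24 and 1.44 in knockdown polysomal RNA. RSAD2, the enzyme viperin that makes a chain-terminating nucleotide, was lower on polysomes in scramble cells (-1.41 ± 0.38, adjusted p = 0.00756, and 0.0553 at a ratio of -1.34 without scramble total replicate 2; -0.89, not called, with the length trend removed). BST2, the tetherin that holds budding virus at the membrane, measured 5.54 and 4.93 CPM with the scramble hairpin and 4.46 and 3.95 CPM with the EIF4G2 hairpin in total RNA, and 6.23 and 3.33 CPM against 2.63 and 2.29 CPM in polysomal RNA, with the hairpins apart in both, and was called in no comparison.

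SAMD9 and SAMD9L are neighbouring paralogs on chromosome 7 that restrict poxviruses and slow protein synthesis. SAMD9 measured 4.24 and 4.59 CPM in scramble total RNA, 2.01 and 3.29 in knockdown total RNA, 1.19 and 1.6 in scramble polysomal RNA and 2.02 and 2.29 in knockdown polysomal RNA. In total RNA both knockdown libraries were below both scramble libraries and in polysomal RNA above them, on 22 to 30 counts per polysomal library. The log2 fold changes were -0.74 ± 0.38 and 0.63 ± 0.43, neither called, and the ratio, 1.36 ± 0.57, was the largest positive one among the members (edgeR adjusted p = 0.776). SAMD9 was called lower on polysomes in scramble cells (-1.66 ± 0.41, adjusted p = 0.00434). SAMD9L stood at 13.6 and 12.5 CPM in scramble total RNA, 7.28 and 11.1 in knockdown total RNA, 5.63 and 2.26 in scramble polysomal RNA and 2.36 and 2.63 in knockdown polysomal RNA. SAMD9L was lower on polysomes in both kinds of cell (-1.72 ± 0.38 and -1.88 ± 0.41), at -2.64 in scramble cells without scramble polysomal replicate 1, and its polysomal levels overlapped between hairpins. With the length trend removed the calls were lost for SAMD9L (-0.32 and -0.48) and for SAMD9 in scramble cells (-0.26).

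ISG15 is a ubiquitin-like protein joined to targets by the conjugating enzyme UBE2L6 and the ligase HERC5, and USP18 removes it and damps receptor signalling. ISG15 measured 79.8 and 85.2 CPM in scramble total RNA, 108 and 77.8 in knockdown total RNA, 599.5 and 446 in scramble polysomal RNA and 530.4 and 364 in knockdown polysomal RNA. It had the highest polysomal-to-total ratio of the 49 genes in scramble cells (log2 ratio 2.66 ± 0.24, edgeR adjusted p = 4.32e-06) and 2.27 ± 0.24 in knockdown cells. The hairpins overlapped in both fractions. UBE2L6 stood at 47.2 and 48.2 CPM in scramble total RNA, 47.4 and 39.9 in knockdown total RNA, 105 and 57.9 in scramble polysomal RNA and 86.2 and 71.8 in knockdown polysomal RNA. UBE2L6 was modestly higher on polysomes (0.77 ± 0.24 and 0.86 ± 0.24), a direction that turned with library totals alone (-0.21 and -0.19) and with the length trend removed (-0.48 and -0.20). Without scramble polysomal replicate 1 the ratio of UBE2L6 in scramble cells was 0.17 (adjusted p = 0.413), and the call there was also lost without either scramble total library. In knockdown cells it was lost without knockdown total replicate 2 or knockdown polysomal replicate 1 (adjusted p = 0.106 in each).

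HERC5 measured 12.9 and 12.4 CPM in scramble total RNA, 10.3 and 8.5 in knockdown total RNA, 9.31 and 3.03 in scramble polysomal RNA and 5.6 and 4.16 in knockdown polysomal RNA. HERC6 stood at 14.4 and 13.1 CPM in scramble total RNA, 10.8 and 10.4 in knockdown total RNA, 5.74 and 5.7 in scramble polysomal RNA and 7.62 and 6.03 in knockdown polysomal RNA. HERC5 was called lower on polysomes in scramble cells (log2 ratio -1.03 ± 0.41, edgeR adjusted p = 0.0449) and its relative HERC6 in both (-1.27 ± 0.23 and -0.63 ± 0.23, adjusted p = 0.000549 and 0.0319). Over the libraries left out the adjusted p reached 0.138 for HERC5, at -0.50 without scramble polysomal replicate 2, and 0.1 for HERC6 in knockdown cells, without knockdown total replicate 1. Each of these calls was lost without any of the 4 total libraries, and that of HERC5 also without scramble polysomal replicate 2; without scramble polysomal replicate 1 HERC5 stood at -2.17. With the length trend removed the calls of HERC5 in scramble cells (-0.49) and HERC6 in knockdown cells (-0.00591) were lost. In total RNA both genes were below the scramble libraries in both knockdown libraries. HERC6, like SAMD9, stood above the scramble values in both knockdown polysomal libraries, by a margin of 0.26 ± 0.24 that was not called. USP18 measured 6.61 and 7.43 CPM with the scramble hairpin and 4.77 and 5.2 CPM with the EIF4G2 hairpin in total RNA, lower in both libraries and without a call in any comparison.

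PARP9 and DTX3L share a promoter region on chromosome 3, form an ADP-ribosylation and ubiquitin ligase pair, and lie near PARP14, a mono-ADP-ribosyltransferase. PARP9 measured 26.1 and 27.1 CPM in scramble total RNA, 19.1 and 22 in knockdown total RNA, 10.3 and 6.59 in scramble polysomal RNA and 9.45 and 5.18 in knockdown polysomal RNA. DTX3L stood at 48.9 and 50.9 CPM in scramble total RNA, 36 and 38.1 in knockdown total RNA, 12.9 and 6.77 in scramble polysomal RNA and 5.74 and 9.34 in knockdown polysomal RNA. PARP14 measured 56.7 and 56.3 CPM in scramble total RNA, 36 and 44.2 in knockdown total RNA, 6.06 and 2.67 in scramble polysomal RNA and 3.91 and 2.72 in knockdown polysomal RNA. All 3 were lower in both knockdown total libraries than in both scramble libraries, at -0.37 ± 0.27, -0.43 ± 0.27 and -0.49 ± 0.27 on the log2 scale, without a call, and their polysomal values overlapped between hairpins. All 3 were low on polysomes in scramble cells, at -1.65 ± 0.29, -2.34 ± 0.29 and -3.68 ± 0.32 (edgeR adjusted p from 3.3e-06 to 0.000464), and in knockdown cells as well. Without scramble polysomal replicate 1 PARP14 stood at -4.51 and DTX3L at -2.99, and PARP9 in knockdown cells stood at -2.08 without knockdown polysomal replicate 1. The annotated exons of PARP9 and DTX3L overlap on opposite strands, as do those of 14 members in all with some other gene, and whether the counting used strand is not given in the sources used here.

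TRIM21 is a cytosolic antibody receptor, TRIM22 an antiviral ubiquitin ligase and SP110 a nuclear body protein. SP110 measured 14.8 and 16.4 CPM in scramble total RNA, 16.6 and 13.6 in knockdown total RNA, 24.9 and 33.9 in scramble polysomal RNA and 30.2 and 27.6 in knockdown polysomal RNA. SP110 was higher on polysomes in both kinds of cell (log2 ratio 0.91 ± 0.20 and 0.94 ± 0.20, edgeR adjusted p = 0.00241 and 0.00217), and turned to -0.10 and -0.12 with library totals alone. TRIM21 measured 16.9 and 18.1 CPM with the scramble hairpin and 18.3 and 15.8 CPM with the EIF4G2 hairpin in total RNA, and TRIM22 4 and 4.22 CPM against 3.86 and 5.11 CPM. Neither was called in any comparison, for all 3 genes the hairpins overlapped in total RNA, and in polysomal RNA both TRIM21 values were lower with the EIF4G2 hairpin (-0.44 ± 0.21, adjusted p = 0.407).

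B2M is the invariant chain of MHC class I, HLA-B and HLA-C are heavy chains, and LGALS3BP is a secreted glycoprotein that binds galectin. B2M measured 107 and 114 CPM in scramble total RNA, 157 and 143 in knockdown total RNA, 683 and 621 in scramble polysomal RNA and 718 and 750.0 in knockdown polysomal RNA. B2M was above both scramble libraries in both knockdown libraries of each fraction, with log2 fold changes of 0.44 ± 0.15 in total (unadjusted p = 0.0139, edgeR adjusted p = 1) and 0.17 ± 0.15 in polysomal RNA. On polysomes it was high in scramble (log2 ratio 2.56 ± 0.16, adjusted p = 7.24e-07) and in knockdown cells (2.29 ± 0.16, adjusted p = 1.08e-06) at a transcript length of 1.70 kb, where all tested genes under 2 kb had medians of 1.25 and 1.14. HLA-B stood at 1.47 and 1.57 CPM in scramble total RNA, 2.42 and 0.955 in knockdown total RNA, 4.76 and 6.65 in scramble polysomal RNA and 8.5 and 2.46 in knockdown polysomal RNA. HLA-B was called higher on polysomes in both kinds of cell (1.91 ± 0.58 and 1.71 ± 0.58) on 29 to 126 counts per library, a call lost without knockdown polysomal replicate 1 (0.45 in knockdown cells, adjusted p = 0.51; 2.50 without knockdown total replicate 1) and without scramble polysomal replicate 2 (1.59 in scramble cells, adjusted p = 0.0813), as well as without knockdown total replicate 2 in knockdown cells or either scramble total library in scramble cells. It was not called with library totals alone (0.90 and 0.69) or with the length trend removed (0.87 in each). HLA-C measured 1.1 and 1.46 CPM with the scramble hairpin and 1 and 1.22 CPM with the EIF4G2 hairpin in total RNA, with no call. HLA-B and HLA-C are near-identical to their paralogs and their counts are uncertain, and TAP1, PSMB8 and PSMB9, other genes of the MHC region on chromosome 6, were at 0 in all 8 libraries. LGALS3BP measured 235 and 237 CPM in total RNA with the scramble hairpin and 311 and 286 CPM with the other, which were apart there (0.34 ± 0.16, adjusted p = 1) and overlapping in polysomal RNA.

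The 4 members with fewer than 10 counts in some library were read from raw counts. IRF7 had 10 and 6 in scramble total RNA, 9 and 30 in knockdown total RNA, 1 and 9 in scramble polysomal RNA and 15 and 11 in knockdown polysomal RNA. IRF9 had 76 and 69 in scramble total RNA, 62 and 88 in knockdown total RNA, 9 and 5 in scramble polysomal RNA and 3 and 1 in knockdown polysomal RNA. XAF1, a pro-apoptotic protein, had 20 and 5 in scramble total RNA, 14 and 21 in knockdown total RNA, 10 and 5 in scramble polysomal RNA and 16 and 0 in knockdown polysomal RNA, where a count of 0 allows up to 0.255 CPM. CMPK2, a mitochondrial nucleotide kinase that shares its promoter region with RSAD2, had 98 and 133 in scramble total RNA, 81 and 103 in knockdown total RNA, 10 and 22 in scramble polysomal RNA and 6 and 11 in knockdown polysomal RNA. None was called in a knockdown comparison. IRF9 was lower on polysomes in scramble and knockdown cells (edgeR adjusted p = 0.00163 and 0.000401), as was CMPK2 (adjusted p = 0.00486 and 0.0073), on at most 22 counts in a polysomal library; for CMPK2 the adjusted p was 0.0536 and 0.0576 without 1 total library, scramble or knockdown replicate 2. Without 1 polysomal library, IRF9 stood at -4.84 in knockdown cells (replicate 1) and CMPK2 at -2.97 in scramble (replicate 2) and -2.98 in knockdown cells (replicate 2). IRF7 was higher in both knockdown polysomal libraries than in both scramble libraries (log2 fold change 1.73 ± 1.04), without a call. At these depths a difference between hairpins in IRF7 or XAF1 could be missed by the test.

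The rest of the pathway was read from a list of 78 genes outside the members, of which 61 were tested. Interferon mRNAs themselves were close to absent from the counts: IFNA2, IFNB1, IFNG, IFNK, IFNL2 and IFNL3 had 0 counts in all 8 libraries, each of which allows up to 0.0942 to 0.255 CPM. IFNA1 and IFNL1 had at most 2 counts in any library. IFNE, an interferon of epithelia, was the one with more, at 25 and 19 in scramble total RNA, 31 and 30 in knockdown total RNA, 0 and 0 in scramble polysomal RNA and 3 and 0 in knockdown polysomal RNA. The receptor chains IFNAR1, IFNGR1 and IFNGR2, and the kinases JAK1, JAK2 and TYK2 were present in all 8 libraries, and IFNAR2 had 21 to 76 counts.

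In total RNA 45 of the 61 lay below 0 (73.8%, against 47.1% of all tested genes), with a median log2 fold change of -0.11. edgeR called none, with 4 at an unadjusted p under 0.05 (6.56%, against 3.68% of all tested genes). DESeq2 also called none, with 4 (6.56%, against 3.49%). The smallest p belonged to TLR3, the endosomal sensor of double-stranded RNA, at 0.502 times the scramble level (log2 SE 0.33), and IFNGR2, a chain of the interferon-gamma receptor, at 0.593 times (log2 SE 0.29), each with an edgeR adjusted p of 1. The counts of TLR3 were 235 and 246 in scramble total RNA, 125 and 140 in knockdown total RNA, 69 and 95 in scramble polysomal RNA and 25 and 34 in knockdown polysomal RNA. In polysomal RNA 43 lay below 0 (70.5%, against 51.4% of all tested genes), with a median of -0.21, and neither edgeR nor DESeq2 called any. At an unadjusted p under 0.05 were 9 by edgeR (14.8%, against 13.3% of all tested genes) and 10 by DESeq2 (16.4%, against 13.2%). The smallest p belonged to ERAP1, which trims peptides for MHC class I (-0.85 ± 0.22, adjusted p = 0.182), and TDRD7, a Tudor-domain antiviral protein (-0.78 ± 0.23, adjusted p = 0.222). In the ratio 38 lay below 0 (62.3%, against 55.9% of all tested genes), and neither edgeR nor DESeq2 called any. At an unadjusted p under 0.05 were 5 by edgeR (8.2%, against 6.27% of all tested genes) and 3 by DESeq2 (4.92%, against 5.69%). The smallest p belonged to IFNGR2 (1.11 ± 0.40, edgeR adjusted p = 0.776) and HLA-E, whose counts of 0 to 47 allow no fold.

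Between fractions edgeR called 12 of the 61 higher on polysomes and 28 lower in scramble cells, 19.7% and 45.9%, against 29.7% and 33.7% of all tested genes. The higher ones included the receptor chains IFNGR1 and IFNGR2, IRF3, the adaptor STING1 (log2 ratio 1.47), IKBKE, SP100, PLSCR1, NT5C3A (1.53) and the proteasome genes PSMB10 (1.62), PSME1 (1.53) and PSME2 (1.43). The lower ones included the kinases JAK1, JAK2 and TYK2, STAT3 (-2.09), the sensors and adaptors RIGI, MAVS (-2.63) and TLR3, the inhibitors SOCS1, SOCS3 and PIAS1, and IFNE. They also included the effectors IFI16, GBP2, TRIM14, TRIM25 (-3.58), PML, SP140L, ZC3HAV1, APOL1, APOL6, PARP10 (-2.72) and RNF213 (-4.11), and HLA-E, TAP2, NLRC5 (-2.47) and ERAP1 of antigen presentation. In knockdown cells 12 were higher, IFNAR1 now among them, and 32 lower (19.7% and 52.5%, against 28.9% and 34.1%), with IFNLR1, DHX58, GBP1, TDRD7, APOL2 and PARP12 added and PIAS1 and HLA-E no longer called. The difference between the hairpins was called for none of these genes.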

How the data were processed

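Whole-number read counts per gene for 8 libraries were deposited by the authors as a single table. Alignment to GRCh38 (hg38) and counting rest on HISAT2 2.1.0 and on featureCounts of Subread 2.0.1, after bcl2fastq 2.19.0 and Trimmomatic 0.36, per the submitters' processing notes, which list these tools with R 4.1.2 and DESeq2 and no settings; the annotation and whether strand was used in counting are not given in the sources used here. Libraries were grouped by title. The members and gene lists were chosen with earlier results of these data known.

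From the deposited counts, edgeR 4.0.16 (R 4.3.3; filterByExpr, TMM scaling, quasi-likelihood test on all 8 libraries with 4 group means) tested 16228 genes in 5 comparisons, with Benjamini-Hochberg adjustment over all of them and calls at 0.05. The 8 libraries together share an estimate of spread with 4 residual degrees of freedom. The test was also run on simulated counts, whose outcome is not given here. Errors of log2 fold changes are standard errors (SE). Transcript lengths and gene positions came from GENCODE 29 (GRCh38). DESeq2 1.42.0, other scalings, no count filter, a replicate block, the libraries of 1 fraction only and each library left out were alternatives. So was removal of each library's length trend by lowess smoothing (span 0.3), chosen after seeing the data. Named genes were EIF4G2, every member, pathway genes called in a comparison and the 2 with the smallest p in each knockdown comparison; members called in any comparison or among the 5 smallest p have all 8 values, and members under 10 counts in some library are given apart. Promoters are from RefSeq.

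Same-numbered libraries were compared by the correlation of their deviations from the group means. Limits for a count of 0 are 3 counts and cover counting error only. The depth of 18043714 to 24590030 counts sets the precision of low members. Protein sequences were not used here. A few genes of the lists are not reported here.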

Additional observations from a re-analysis of the deposited data

Results flagged for a closer look

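In 2 of the 49 genes both knockdown libraries lay below both scramble libraries in total RNA and above both in polysomal RNA. SAMD9 measured 4.24 and 4.59 CPM in scramble total RNA and 2.01 and 3.29 in knockdown total RNA, and 1.19 and 1.60 in scramble polysomal RNA and 2.02 and 2.29 in knockdown polysomal RNA. The difference of its log2 fold changes between the fractions was 1.36 (edgeR unadjusted p = 0.0368, adjusted p = 0.776). HERC6 measured 14.4 and 13.1 CPM, then 10.8 and 10.4 CPM in total RNA, and 5.74 and 5.70, then 7.62 and 6.03 CPM in polysomal RNA, scramble before knockdown. Its difference between the fractions was 0.64 (edgeR unadjusted p = 0.0723, adjusted p = 0.776). Neither difference passed the test over all genes.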

How the results depend on the processing

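In total RNA edgeR called 0 members under every alternative run. In polysomal RNA it called 5 members without a count filter (DDX60, HELZ2, OAS1, MX2 and IFI6), DESeq2 called 3, and with single libraries left out the count was 0 to 2. Over all tested genes the polysomal calls rose as well, to 502 of 30065 without the filter and 228 of 16228 in DESeq2. With the filter edgeR called 2 of 16228. The run with 2 members called was without knockdown polysomal replicate 2, which left 1 library in that group. More of all tested genes were called there too. The members below 0 in the polysome-to-total ratio ranged from 23 to 38 with single libraries left out. Library totals alone gave 8 higher and 32 lower on polysomes in scramble cells (median -1.22) and 7 higher and 31 lower in knockdown cells (median -1.41). Under that setting 10986 of 16228 genes were called in scramble and 10995 in knockdown cells. The length trend removed gave 8 higher in scramble and 9 in knockdown cells, and 17 and 12 calls were lost: beside the reversals below, DDX60, IFITM1, OAS2, RSAD2, SAMD9, IFI44L, HERC5, EIF2AK2 and IFI6 in scramble cells, IFIT1, IFI44 and HERC6 in knockdown cells, and IFITM3, SAMD9L, IFI27 and HLA-B in both. With single libraries left out, knockdown cells had 10 to 15 called higher and a median of -0.71 to -0.31, and scramble cells 14 to 22 called lower. The longer promoter motif was in 14.3% of member windows. Directions of members reversed with library totals alone in scramble cells for IFI44 (-0.13), UBE2L6 (-0.21) and SP110 (-0.10), and in knockdown cells for IFIT1 (-0.43), IFIT2 (-0.50, edgeR adjusted p = 0.0239), IFI35 (-0.25), IFI44 (-0.13), UBE2L6 (-0.19) and SP110 (-0.12). Library totals alone also lost the calls of OASL and IFI35 in scramble cells, IFITM2 and IFI6 in knockdown cells and HLA-B in both. With the length trend removed they reversed in scramble cells for IFITM2 (-0.13), IFI35 (-0.12), IFI44 (-0.0409) and UBE2L6 (-0.48), and in knockdown cells for EIF2AK2 (0.0585), IFITM2 (-0.0944), IFI6 (-0.26), IFI35 (-0.36) and UBE2L6 (-0.20). The cause was not tested. Some members described as called in no comparison were called between fractions in other runs. Library totals alone gained IRF1, IFIH1, IFIT5, BST2, USP18, TRIM21, TRIM22 and LGALS3BP in both kinds of cell. That setting also gained IFIT1, IFIT2 and MX2 in scramble cells, and IFIT3, OAS2, RSAD2, SAMD9, IFI44L and HERC5 in knockdown cells. No count filter gained IFIT3, OAS2, RSAD2, BST2, IFI44L and HERC5 in knockdown cells, with 10416 of 30065 genes called.

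Libraries of the same number deviated from their group means with correlations of -0.0921 to 0.0264. These values show no deviation shared by number, and they cannot tell whether libraries of the same number came from the same culture. With the replicate block, 0 members were called in each knockdown comparison, 14 higher and 21 lower in scramble cells, and 16 higher and 18 lower in knockdown cells. Of all 16228 genes it called 0 to 3 in the knockdown comparisons, 9932 in scramble cells and 9774 in knockdown cells.

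Depth limits the low members: IRF7 and XAF1 had at most 30 counts in a library, and MX2 and HELZ2 at most 15 in a knockdown polysomal library.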
